A study of Sus scrofa with 15 samples.

Results

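The -6vs-14 time comparison set the mammary gland of late-pregnant sows at 6 d prepartum beside the same glands at 14 d prepartum. It used 6 of the 15 mRNA libraries of a pig time course, 3 of each of these days, and every gene with enough reads was considered. The tissue came by repeated biopsy from 3 second-parity crossbred sows (Danish Landrace × Yorkshire), selected in the study for their high colostrum yield, with no genetic modification or drug treatment compared between the days. All 3 sows were in late gestation and gave 1 library at each of 5 time points, of which the others were 10 and 2 d prepartum and 1 d postpartum. Biopsies were repeated in the same animals, with general anesthesia (Telozol with ketamine and xylazine) and local lidocaine. Banamine was given right after each biopsy and again over the following days. The tissue at 6 d was thus taken after the biopsies at 14 and 10 d and their drugs. An effect of these earlier biopsies and drugs and one of time cannot be told apart. The sow is also the diet, since each sow was fed another combination of fibre source and fat source, so that an effect of the sow and one of its diet cannot be told apart. By the approximate dates of gestation given in the study, the sows were assigned to these diets after the biopsy at 14 d and before that at 6 d prepartum, so that the change of diet and the time cannot be told apart either. Sows are numbered 1 to 3 here, and values are given in that order.

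Colostrum is formed in the last part of gestation, before copious milk secretion begins. The secretory epithelium of the gland makes caseins and whey proteins, and it releases lipid as globules wrapped in a membrane that holds butyrophilin and xanthine dehydrogenase. In the pig the placenta does not pass immunoglobulins to the fetus, so that the antibodies of colostrum protect the newborn. Interferons are cytokines that act through receptors on the cell surface on a large set of antiviral and regulatory genes, which are used as a readout of interferon signaling in many tissues.

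The 3 libraries at 14 d prepartum held 18924790, 19292238 and 16862026 reads counted on genes, and those at 6 d prepartum held 17726719, 18261982 and 18274050. The share of counts taken by the 10 highest genes was 17.7% ± 1.59 at 14 d and 23.4% ± 2.29 at 6 d (SD, n = 3), and the groups did not overlap. The share on the mitochondrial genome was 7.80% ± 0.211 and 8.15% ± 0.068. Each of these differences had an exact two-sided permutation p of 0.1, the lowest value possible with 3 libraries on each side. The RNA integrity number of every library at 6 d was above that of every library at 14 d, so that RNA quality and time cannot be told apart within these 6 libraries. In biopsies of whole tissue, fewer cells of a type and less RNA per cell cannot be told apart.

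Between 14 and 6 d prepartum a small set of genes moved, and most of it was upregulated. Of 13503 genes tested, 63 were called (0.467%), of which 56 were higher at 6 d (0.415%) and 7 were lower (0.0518%). A gene was called when the Benjamini-Hochberg adjusted p of edgeR was 0.05 or less both for the overall test of time and for this comparison. The called upregulated genes with a name included XDH of the milk fat globule membrane, the phosphate transporter SLC34A2, and IFI44, USP18, MX2, HERC6 and IFIT1, which are known as interferon-induced genes. The median log2 fold change was 1.30 over the upregulated genes and -0.85 over the downregulated ones, against 0.00 over all tested genes. A name could be attached from a reference table to 40 of the 63, of which 35 were higher and 5 were lower. Genes without a name there are given as such. The study's own gene list pairs ENSSSCG00000001711 (log2 fold change 1.89) with CLIC5 and ENSSSCG00000010453 with IFIT1. In 62 of the 63 all 3 sows moved the same way, and in 55 the libraries of both days did not overlap. Of all 13503 genes tested, 3178 were higher and 3094 were lower in all 3 sows. Among them 9.95% did not overlap upward and 8.92% downward. The called genes were chosen by a test on these same values, so that their agreement between sows is no separate evidence.

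The number of calls depended on the model and on single libraries. edgeR without the sow in the model called 0 genes, with 1189 genes at a nominal (unadjusted) p of 0.05 or less, limma-voom with a random sow effect, the kind of model used in the study, called 23, and DESeq2 called 325. Leaving out the library of sow 1, 2 or 3 at 14 d left 2, 1 or 33 calls, leaving out that of sow 1, 2 or 3 at 6 d left 2, 1 or 9, and a model with the RNA integrity number beside time and sow called 0, with 615 genes at a nominal p of 0.05 or less.

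**Figure D1:**
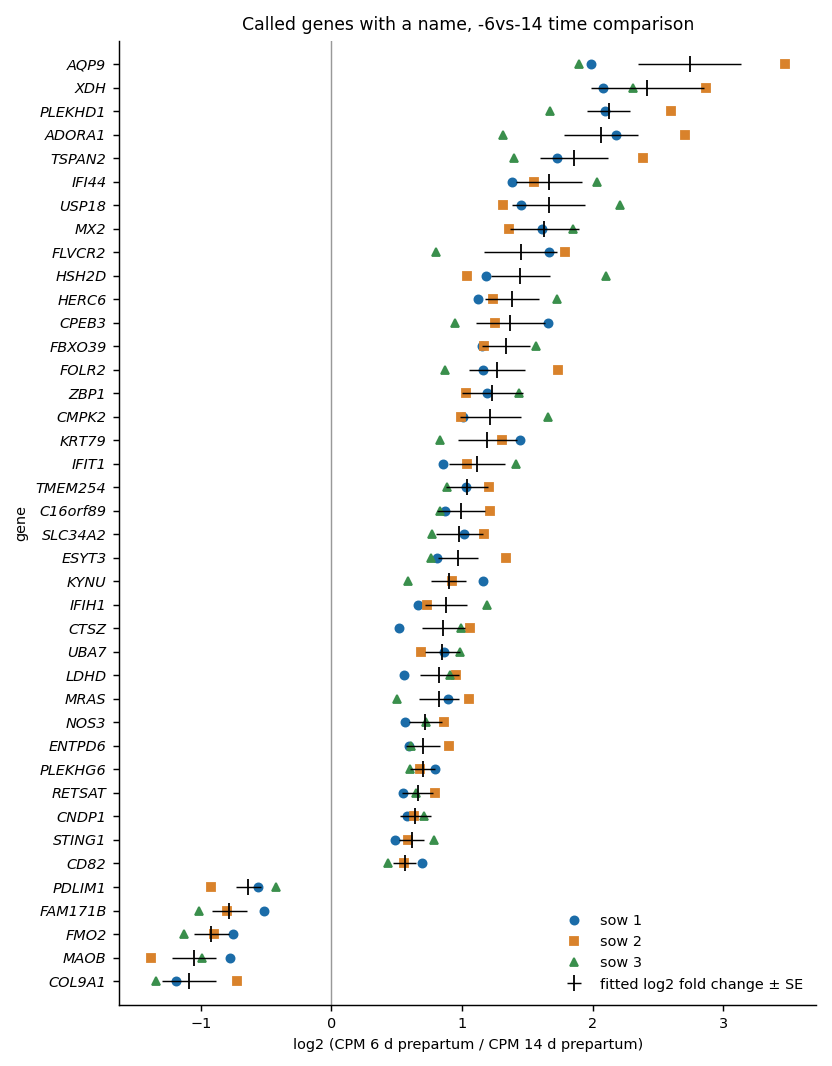
Log2 ratio of the CPM (library-size normalized read count, with TMM factors) at 6 d to that at 14 d prepartum for the 40 called genes with a name, on the horizontal axis. Colored points are the 3 sows, computed with a prior count of 2, and black ticks with bars are the fitted log2 fold change ± SE. The 35 upregulated genes lie to the right of 0 and the 5 downregulated genes to the left in all 3 sows, and the interferon-related genes IFI44, USP18, HSH2D and HERC6 have their highest ratio in sow 3.

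Among the named genes of milk proteins and of the milk fat globule, XDH (xanthine dehydrogenase, which the epithelium uses to envelop lipid droplets) was called. XDH lies at chr3:114732409-114797792 of the build Sscrofa10.2. Its level, as TMM-normalized counts per 1000000 reads (CPM), was 429, 411 and 199 CPM at 14 d and 1814, 2999 and 987 CPM at 6 d. All libraries at 6 d were above all at 14 d, and sow 3 was the lowest on both days. The log2 fold change was 2.42 ± 0.43 (SE), with an edgeR adjusted p of 0.0354.

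BTN1A1 (butyrophilin, the partner of XDH in the globule membrane) had 3.30, 1.21 and 0.194 CPM at 14 d and 24.99, 29.1 and 3.94 CPM at 6 d. Its log2 fold change was 3.62 ± 0.72 and its adjusted p of 0.0527 missed the threshold. The groups did not overlap, but sow 3 at 6 d lay close to sow 1 at 14 d.

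The caseins had high levels already at 14 d. CSN1S1 (alpha-S1-casein) had 15804, 15445 and 13177 CPM at 14 d and 34260, 41031 and 27062 CPM at 6 d, with a log2 fold change of 1.19 ± 0.32 and an adjusted p of 0.146. CSN2 (beta-casein) had 3175, 2181 and 1069 CPM at 14 d and 20494, 30738 and 11004 CPM at 6 d, with a log2 fold change of 3.31 ± 0.67 and an adjusted p of 0.0561. CSN3 (kappa-casein, which holds the casein micelle in solution) had 890, 1202 and 798 CPM at 14 d and 4302, 6010 and 2300 CPM at 6 d. For CSN3 the adjusted p of 0.0501 stood just above the threshold, at a log2 fold change of 2.01 ± 0.39. In each of these 3 named caseins the libraries of 6 d were all above those of 14 d, and none of the 3 passed the threshold. A casein gene without a name is not covered by this count. Sow 3 was the lowest on both days in all 3 caseins.

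LALBA (alpha-lactalbumin, the regulatory subunit of lactose synthase) had 15.1, 6.41 and 1.11 CPM at 14 d and 128, 161 and 7.83 CPM at 6 d. Its groups overlapped, since the level of sow 3 at 6 d was below that of sow 1 at 14 d, and the log2 fold change of 3.57 ± 0.93 had an adjusted p of 0.135. Its level went on to 1378, 1890 and 90.9 CPM at 2 d prepartum.

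Of the 24 genes in the list of milk proteins and fat globule components 14 were tested, 1 was called and 7 had a nominal p of 0.05 or less, all of them higher at 6 d. Over all genes tested, 7.26% were at that nominal p in the upward direction. The list median of the log2 fold change was 1.10, and by sow it was 1.14, 1.31 and 0.57. Members without a call also included LTF (lactoferrin, an iron-binding antimicrobial protein), which had 1003, 935 and 1198 CPM at 14 d and 1428, 1542 and 1710 CPM at 6 d with an adjusted p of 0.419. MFGE8 (a globule membrane glycoprotein) had a log2 fold change of 0.48 ± 0.60, MUC15 (a membrane mucin) 1.01 ± 0.45, LPO (lactoperoxidase) 1.45 ± 0.99, LCN2 (lipocalin 2) -0.13 ± 0.87, SPP1 (osteopontin) -0.43 ± 0.26, CEL (bile salt-activated lipase) 0.00 ± 0.45 and PLIN5 (a lipid droplet coat protein) 0.22 ± 0.55, and their adjusted p lay between 0.376 and 0.999.

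The largest rise belonged to a gene without a name in the sources used here, ENSSSCG00000009263, at chr8:148310617-148326957 of Sscrofa10.2. Its level was 58.7, 21.0 and 9.35 CPM at 14 d and 3494, 3560 and 158 CPM at 6 d, with a log2 fold change of 5.91 ± 0.94 and an edgeR adjusted p of 0.0239. By 1 d postpartum it stood at 219934, 45580 and 68998 CPM. CSN2 ends 73632 bases before its start in the annotation used, and CSN3 lies beyond its end at chr8:148440837-148444886. The gene thus lies between these caseins. In the study CSN1S2 (alpha-S2-casein) was the most upregulated casein before and after parturition. No tested member of the milk protein list carries that name. Whether ENSSSCG00000009263 is CSN1S2 was not tested, so that a call of this casein remains possible.

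Among the other called genes without a name, ENSSSCG00000022639 on the scaffold GL893949.2 had 0, 1 and 0 reads at 14 d and 12, 24 and 10 reads at 6 d. The ratio of the summed counts, scaled by the total counts, was 46.7 with an exact 95% interval of 7.97 to 1884 that covers counting error only. ENSSSCG00000013369, at chr2:44024783-44025604 and singled out after its values were seen, had 18.8, 18.2 and 0 CPM at 14 d and 45.2, 50.1 and 0 CPM at 6 d. It was the called gene in which the sows did not all move one way, since sow 3 had no read on either day.

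**Figure D2:**
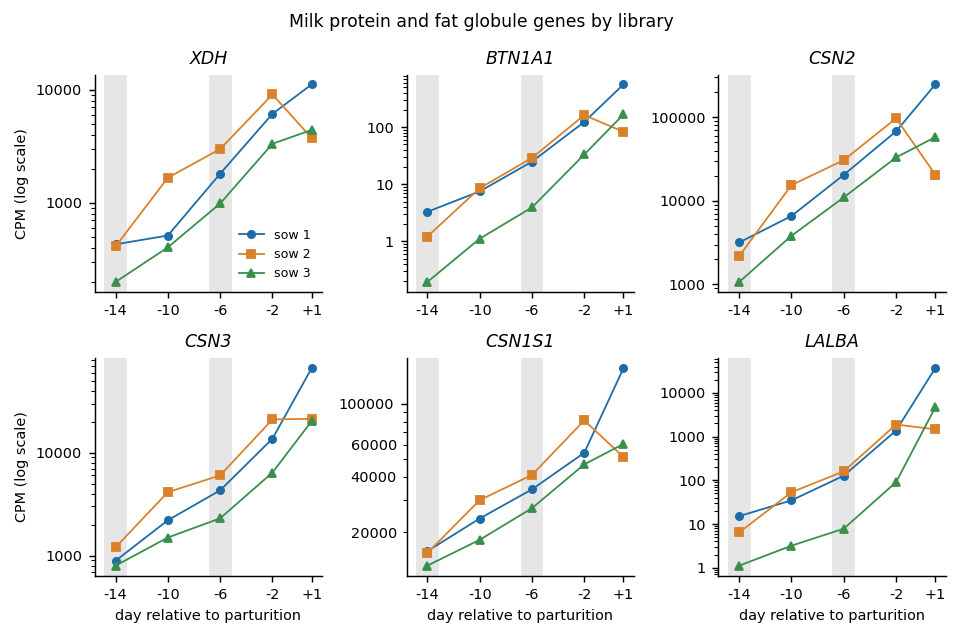
CPM on a log scale (vertical axis) against the day relative to parturition for XDH, BTN1A1, CSN2, CSN3, CSN1S1 and LALBA, with a line for each sow and the compared days shaded. For each gene and sow the level at 6 d was above that at 14 d, and sow 3 had the lowest level of each gene at 6 d, as for LALBA with 7.83 CPM against 128 and 161 CPM in sows 1 and 2.

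A number of the called genes were interferon-related. Of the 28 genes in the list of the interferon response 18 were tested, 3 were called (MX2, ZBP1 and IFIT1) and 11 had a nominal p of 0.05 or less, all of them higher. Over all genes tested these shares were 0.415% called higher and 7.26% higher at that nominal p. The median log2 fold change of the list was 0.63, and it was 0.48, 0.66 and 0.60 by sow. The libraries of both days did not overlap for 12 of the 18, all higher at 6 d, against 9.95% of all genes tested (8.92% did not overlap in the other direction). The summed level of the list ranged from 459 to 536 CPM at 14 d and from 697 to 741 CPM at 6 d.

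MX2 (a dynamin-like antiviral GTPase) had 6.14, 6.99 and 6.06 CPM at 14 d and 19.04, 18.2 and 22.2 CPM at 6 d. Its log2 fold change was 1.63 ± 0.26, with an edgeR adjusted p of 0.0258. ZBP1 (a sensor of left-handed nucleic acid) had 4.90, 4.23 and 3.34 CPM at 14 d and 11.4, 8.78 and 9.25 CPM at 6 d, with a log2 fold change of 1.23 ± 0.24 and an edgeR adjusted p of 0.0479. The 3 sows lay within a narrow range on each day for both genes.

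IFIT1 (an RNA-binding antiviral protein) had 8.15, 9.005 and 7.80 CPM at 14 d and 14.8, 18.6 and 21.0 CPM at 6 d. Its log2 fold change was 1.12 ± 0.22, with an edgeR adjusted p of 0.0479. The name is uncertain, because the study's own gene list pairs this identifier (ENSSSCG00000010452) with IFIT3, a close paralog, and gives the name IFIT1 to ENSSSCG00000010453, which has no name in the reference table. That neighboring gene was called too, with a log2 fold change of 1.42. How reads shared by such paralogs were divided between them was not tested, so that both values are uncertain.

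Other called genes are known to be induced by interferon but were not in the list, and were grouped with it after their values were seen. IFI44 (an interferon-induced cytoplasmic protein) had 33.97, 24.9 and 22.6 CPM at 14 d and 88.9, 73.2 and 93.1 CPM at 6 d, with a log2 fold change of 1.67 ± 0.25 and an edgeR adjusted p of 0.0221. USP18 (the protease that removes ISG15 from proteins and damps interferon receptor signaling) had 17.6, 18.2 and 11.5 CPM at 14 d and 48.3, 45.5 and 53.7 CPM at 6 d, with a log2 fold change of 1.66 ± 0.28 and an edgeR adjusted p of 0.0322. HERC6 (an E3 ligase of the HERC family) had 38.7, 37.2 and 31.6 CPM at 14 d and 84.7, 87.8 and 105 CPM at 6 d, with a log2 fold change of 1.38 ± 0.21 and an edgeR adjusted p of 0.0221. In each of these genes sow 3 was the lowest at 14 d and the highest at 6 d.

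On the log2 scale, UBA7 (the activating enzyme of ISG15) rose by 0.85 ± 0.13 with an edgeR adjusted p of 0.0233, from 30.1, 22.4 and 25.4 CPM to 54.7, 36.2 and 50.4 CPM. CMPK2 (a mitochondrial nucleotide kinase) rose by 1.22 ± 0.23 with an adjusted p of 0.0479, from 13.8, 12.02 and 9.06 CPM to 27.9, 24.0 and 28.9 CPM. HSH2D (an adaptor protein of lymphocytes) rose by 1.45 ± 0.23 with an adjusted p of 0.0239, from 10.3, 8.88 and 5.04 CPM to 23.5, 18.4 and 22.002 CPM. The levels at 6 d were above those at 14 d in every sow for the 3 genes.

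IFIH1 and STING1, also taken up after their values were seen, act in the sensing of nucleic acid. IFIH1 (the cytosolic sensor of double-stranded RNA, MDA5) rose by 0.88 ± 0.16 on the log2 scale, from 9.34, 11.9 and 9.94 CPM to 14.9, 19.7 and 22.9 CPM, with an edgeR adjusted p of 0.0401. STING1 (the adaptor of the DNA sensing pathway) rose by 0.62 ± 0.09 on the same scale, from 77.9, 55.5 and 47.3 CPM to 109, 83.5 and 81.6 CPM, with an edgeR adjusted p of 0.0221. The levels of 6 d were above those of 14 d in every sow for both. The endosomal sensors of the list were not called, with log2 fold changes of 0.25 for TLR3 and 0.14 for TLR7.

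The transcription factors IRF9, STAT2 and IRF7, which act in interferon signaling, did not pass the threshold. IRF9 had a log2 fold change of 0.83 with an adjusted p of 0.0527, STAT2 of 0.43 and IRF7 of 0.69, each at a nominal p of 0.05 or less and higher in all 3 sows. MX1, the paralog of MX2, had a log2 fold change of 1.63 and was not called. IRF1, GBP1 and GBP2, which are known to respond to interferon gamma, had log2 fold changes of 0.05, -0.07 and 0.29 and nominal p above 0.05. Further interferon-induced genes outside the list were looked up after the values of the called genes were seen. Only a part of them is given here, so that it does not show how uniform the rise was. RSAD2 had 1.47, 1.38 and 0.969 CPM at 14 d and 4.98, 6.12 and 6.74 CPM at 6 d. The log2 fold change was 1.502 ± 0.32 for OAS2, 1.53 ± 0.40 for DHX58, 1.42 ± 0.33 for HERC5 and 1.01 ± 0.23 for IFI44L. None of RSAD2, OAS2, DHX58, HERC5 and IFI44L was called, and their edgeR adjusted p lay between 0.0739 and 0.136.

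At 2 d prepartum the values of IFI44, USP18 and MX2 lay below those at 6 d in each sow. IFI44 stood at 58.2, 35.3 and 30.5 CPM, USP18 at 26.2, 18.0 and 17.3 CPM, and MX2 at 10.7, 9.25 and 8.04 CPM. By 1 d postpartum IFI44 had 44.7, 62.0 and 73.3 CPM and USP18 18.0, 34.4 and 35.6 CPM, below 6 d in each sow. MX2 then had 15.6, 17.2 and 29.4 CPM, which in sow 3 was above 6 d. The log2 fold change of 2 d against 6 d was -1.08 for IFI44, -1.27 for USP18 and -1.08 for MX2, each with an adjusted p of 0.16, so that these differences did not pass the test. STING1 differed in sign, with 119, 92.0 and 90.5 CPM at 2 d and a log2 fold change of 0.14 with an adjusted p of 0.59. Only 4 of the 13503 genes (0.0296%) were called between these days at an adjusted p of 0.05 or less. They included ADORA1, with a further log2 rise of 1.98, and FBXO39 (an F-box protein), which fell by 1.52 on the log2 scale after its rise of 1.34 ± 0.18 between 14 and 6 d, each with an edgeR adjusted p of 0.0182. FBXO39 had 3.71, 1.76 and 2.62 CPM at 14 d, 8.39, 4.10 and 7.97 CPM at 6 d, and 3.06, 1.51 and 2.51 CPM at 2 d prepartum.

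**Figure D3:**
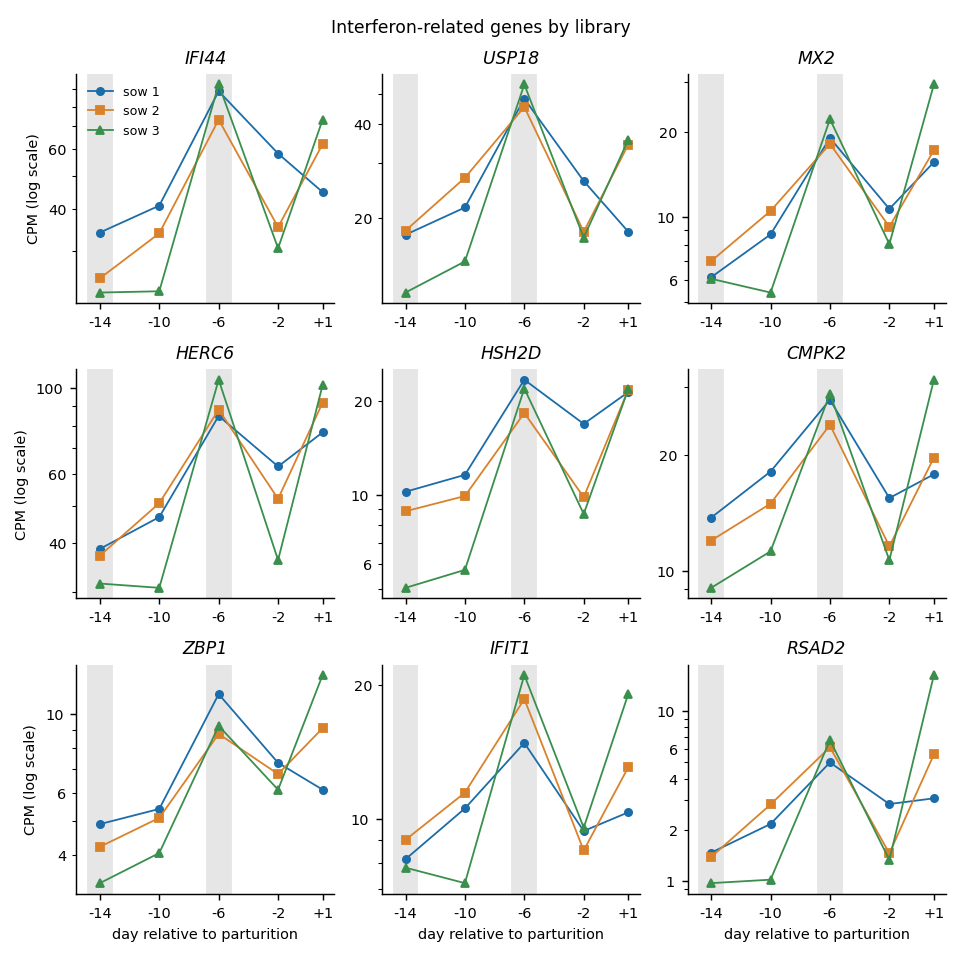
CPM on a log scale (vertical axis) against the day relative to parturition for 9 interferon-related genes, with a line for each sow and the compared days shaded. All 3 sows had higher levels at 6 d than at 14, 10 and 2 d prepartum in each gene, as for USP18 with 45.5 to 53.7 CPM at 6 d. The levels at 1 d postpartum differed between genes. USP18 had 18.0, 34.4 and 35.6 CPM, below 6 d in each sow. HERC6 had 76.9, 91.6 and 102 CPM, against 84.7, 87.8 and 105 CPM at 6 d. RSAD2, in the last panel, was not called.

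The summed level of the leukocyte markers ranged from 384 to 422 CPM at 14 d and from 395 to 444 CPM at 6 d, which overlap. Of its 31 tested markers 0 were called, and 2 were higher and 1 was lower at a nominal p of 0.05 or less. The shares of all genes tested were 7.26% and 5.78%. The median log2 fold change of the markers was 0.05. PTPRC (CD45, carried by leukocytes in general) had 36.6, 32.7 and 38.1 CPM at 14 d and 34.4, 37.5 and 38.1 CPM at 6 d. CD4 had 2.93, 5.40 and 4.27 CPM at 14 d and 5.46, 8.30 and 8.17 CPM at 6 d, with an adjusted p of 0.072. The part of leukocytes in the interferon values was not tested beyond these levels.

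Genes of transport across cell membranes were called in a few cases. The cell types that carried them in these biopsies of whole tissue were not tested. SLC34A2 (the sodium-phosphate cotransporter of secretory epithelia) had 437, 387 and 390 CPM at 14 d and 885, 872 and 666 CPM at 6 d, with a log2 fold change of 0.98 ± 0.18 and an edgeR adjusted p of 0.0381. AQP9 (a channel for water, glycerol and small solutes) had 0.595, 0.251 and 0.339 CPM at 14 d and 2.71, 3.94 and 1.58 CPM at 6 d, with a log2 fold change of 2.74 ± 0.39 and an edgeR adjusted p of 0.0197. FOLR2 (a folate receptor) had 20.01, 15.96 and 12.7 CPM at 14 d and 44.9, 53.3 and 23.2 CPM at 6 d, with a log2 fold change of 1.27 ± 0.21. The groups did not overlap in any of the 3.

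FLVCR2 (a transporter of the major facilitator superfamily) rose by 1.45 ± 0.28 on the log2 scale, with an edgeR adjusted p of 0.0479, from 8.88, 5.28 and 6.88 CPM to 28.5, 18.5 and 12.1 CPM. Of the 29 tested genes of amino acid and solute transport, SLC34A2 was the member called, against 0.415% of all genes tested. At a nominal p of 0.05 or less 3 were higher and 1 was lower, against 7.26% and 5.78% of all genes. SLC7A8 (a neutral amino acid transporter) had 47.3, 38.1 and 34.4 CPM at 14 d and 104, 93.9 and 68.4 CPM at 6 d with an adjusted p of 0.135. The list median was 0.07, against 0.00 for all genes.

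The smallest adjusted p of the comparison belonged to PLEKHD1, a protein with a pleckstrin homology domain, at chr7:99429619-99464340. It had 36.6, 19.7 and 22.4 CPM at 14 d and 157, 121 and 72.0 CPM at 6 d, a log2 fold change of 2.12 ± 0.17 and an edgeR adjusted p of 0.000287. Under 20 alternative settings it lost its call in 3, fewer than any other called gene with a name. Its level rose further in the later libraries, to 607, 455 and 423 CPM at 1 d postpartum.

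Genes of membrane organization and signaling followed. TSPAN2 (a tetraspanin) had 16.3, 12.5 and 8.68 CPM at 14 d and 54.5, 65.8 and 23.1 CPM at 6 d, with a log2 fold change of 1.86 ± 0.26. ADORA1 (the A1 adenosine receptor) had 2.98, 0.963 and 3.39 CPM at 14 d and 13.9, 6.92 and 8.61 CPM at 6 d, with a log2 fold change of 2.06 ± 0.28. The edgeR adjusted p was 0.0197 for both, and sow 2 had the largest ratio in both.

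The other called upregulated genes with a name had log2 fold changes from 0.56 to 1.37. They included the lysosomal protease CTSZ (0.86 ± 0.17), the tryptophan-catabolic enzyme KYNU (0.90 ± 0.13), the retinol saturase RETSAT (0.66 ± 0.12), the D-lactate dehydrogenase LDHD (0.83 ± 0.15), the carnosine dipeptidase CNDP1 (0.64 ± 0.12) and the nucleotidase ENTPD6 (0.70 ± 0.13). They also included NOS3 (endothelial nitric oxide synthase, 0.72 ± 0.13), the small GTPase MRAS (0.82 ± 0.15), the exchange factor PLEKHG6 (0.70 ± 0.10), the tetraspanin CD82 (0.56 ± 0.09), the keratin KRT79 (1.19 ± 0.22), the lipid transfer protein ESYT3 (0.97 ± 0.15) and the RNA-binding protein CPEB3 (1.37 ± 0.26). TMEM254 and C16orf89 had 1.04 ± 0.16 and 0.99 ± 0.18. RETSAT had 137, 138 and 139 CPM at 14 d and 201, 239 and 218 CPM at 6 d.

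NOS3 is a marker of endothelium, and the endothelial marker list had a summed level of 795 to 884 CPM at 14 d and 898 to 1049 CPM at 6 d, which did not overlap. Of its 12 tested markers 0 were called and 3 were higher at a nominal p of 0.05 or less, against 7.26% of all genes tested. The median of the list was 0.15 and it was -0.13, 0.36 and 0.40 by sow, so that sow 1 had the opposite sign. PECAM1 (the adhesion molecule of endothelial junctions) had 287, 271 and 285 CPM at 14 d and 327, 362 and 386 CPM at 6 d with an adjusted p of 0.196. The part of endothelial cells in the value of NOS3 was not tested.

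The 5 called genes with a name that were lower at 6 d were COL9A1, MAOB, FMO2, FAM171B and PDLIM1. COL9A1 (a chain of the fibril-associated collagen IX, at chr1:56677556-56773097) had 43.8, 165 and 28.6 CPM at 14 d and 19.2, 99.9 and 11.2 CPM at 6 d. Its log2 fold change was -1.09 ± 0.20 with an edgeR adjusted p of 0.046. Sow 2 was several times above the others on both days, so that the groups overlapped although each sow decreased.

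MAOB (monoamine oxidase B, on the outer mitochondrial membrane) had 53.8, 78.4 and 53.5 CPM at 14 d and 31.4, 30.0 and 26.9 CPM at 6 d, with a log2 fold change of -1.05 ± 0.17 and an edgeR adjusted p of 0.0258. FMO2 (a flavin-containing monooxygenase) had 47.8, 69.6 and 28.1 CPM at 14 d and 28.3, 37.3 and 12.8 CPM at 6 d, with a log2 fold change of -0.92 ± 0.13. PDLIM1 (an adaptor of the actin cytoskeleton) had 92.5, 90.4 and 89.2 CPM at 14 d and 62.8, 47.8 and 66.6 CPM at 6 d, with a log2 fold change of -0.63 ± 0.10. MAOB and PDLIM1 had no overlap between the days, and FMO2 did. On the log2 scale FAM171B fell by 0.78 ± 0.14, from 16.6, 22.8 and 26.7 CPM to 11.6, 13.04 and 13.1 CPM, and the genes without a name ENSSSCG00000016539 and ENSSSCG00000014295 fell by 0.85 ± 0.16 and 0.50 ± 0.09.

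**Figure D4:**
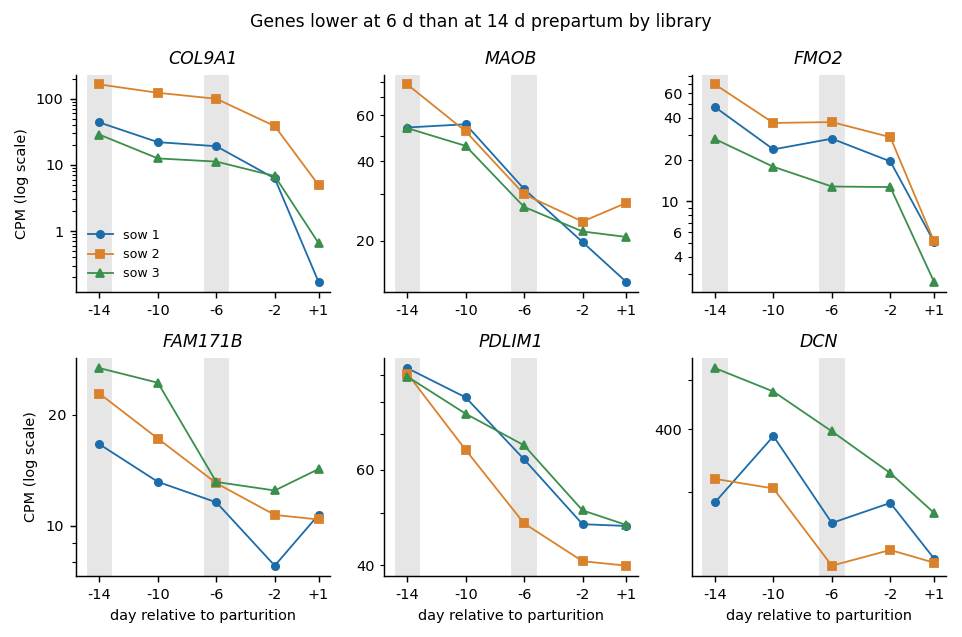
CPM on a log scale (vertical axis) against the day relative to parturition for the 5 called downregulated genes with a name and for DCN, which was not called, with a line for each sow and the compared days shaded. Each sow was lower at 6 d than at 14 d in each gene, and COL9A1 of sow 2 was above the other sows in these 6 libraries (165 and 99.9 CPM).

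COL9A1 was the only member called among the 38 tested genes of the extracellular matrix. In that list 10 were lower and 1 was higher at a nominal p of 0.05 or less, against 5.78% of all tested genes in the downward direction, and the median log2 fold change was -0.23. The small proteoglycan DCN (decorin) had 286, 319 and 529 CPM at 14 d and 261, 214 and 396 CPM at 6 d, with an adjusted p of 0.256. LUM (lumican), COL6A2 and POSTN (periostin) had log2 fold changes of -0.38, -0.37 and -0.68 and were not called. SULF1 (an extracellular sulfatase) had a log2 fold change of 0.60 in the opposite direction.

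Several of these genes are also fibroblast markers. The 16 tested fibroblast markers had a median log2 fold change of -0.29, which was 0.12, -0.45 and -0.29 by sow, and their summed level ranged from 4276 to 7983 CPM at 14 d and from 3928 to 6530 CPM at 6 d. None was called, and 5 were lower at a nominal p of 0.05 or less, against 5.78% of all genes tested. The part of fibroblast number in the matrix values was not tested. COL3A1 (a fibrillar collagen) had 2183, 3459 and 4538 CPM at 14 d and 2372, 2268 and 3725 CPM at 6 d, so that sow 1 moved against the other sows.

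The list of cell cycle and DNA replication genes had 44 tested members, of which 0 were called, 3 were lower at a nominal p of 0.05 or less, a share near the 5.78% of all genes tested, and 5 had a log2 fold change above 0. Its median was -0.18, and it was 0.09, -0.54 and -0.17 by sow. HELLS (a chromatin remodeler of dividing cells) had 26.5, 31.1 and 30.1 CPM at 14 d and 21.96, 18.7 and 25.4 CPM at 6 d with an adjusted p of 0.319. The other members at that nominal p were TIPIN and BUB3, with log2 fold changes of -0.32 and -0.19.

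None of the named genes tested for immune transfer and the acute phase was called. Genes without a name were not in these lists, so that a call among them is not covered. An example taken up after its values were seen is ENSSSCG00000002749, a called gene on chromosome 6. It rose by 2.88 ± 0.34 on the log2 scale, with an edgeR adjusted p of 0.0139. Its level rose further, to 881, 1629 and 738 CPM at 2 d prepartum. By 1 d postpartum it had reached 4446, 12120 and 6666 CPM. The study lists haptoglobin (HP), an acute phase protein, among its most upregulated genes before and after parturition. No tested member of the acute phase list carries that name. Whether ENSSSCG00000002749 is haptoglobin was not tested, so that a call of this acute phase gene remains possible. PIGR (the receptor that carries polymeric immunoglobulin across the epithelium) had 25.6, 27.2 and 17.9 CPM at 14 d and 77.0, 110 and 48.2 CPM at 6 d, with a log2 fold change of 1.70 ± 0.42 and an adjusted p of 0.124. FCGRT (the neonatal Fc receptor for immunoglobulin G, added after the values were seen) had 114, 91.4 and 96.0 CPM at 14 d and 108, 91.3 and 115 CPM at 6 d. LBP (the lipopolysaccharide-binding protein) had 8.97, 11.9 and 7.66 CPM at 14 d and 48.0, 85.9 and 25.5 CPM at 6 d, with a log2 fold change of 2.39 ± 0.50 and an adjusted p of 0.0754. For PIGR and LBP all libraries of 6 d were above all of 14 d, whereas those of FCGRT overlapped.

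Of the 24 tested antimicrobial and acute phase genes, 5 were higher and 1 (lysozyme, LYZ, with -0.71) was lower at a nominal p of 0.05 or less. The shares of all genes tested were 7.26% and 5.78%. TLR2 (a receptor of bacterial lipoproteins), C4A (complement component 4) and MASP1 (a protease of the lectin pathway) had log2 fold changes of 1.15, 0.98 and 0.80. The 5 tested plasma cell markers had 0 called genes, and their summed level ranged from 491 to 668 CPM at 14 d and from 657 to 1142 CPM at 6 d. XBP1, which is shared by plasma cells and secretory epithelium, had 586, 564 and 391 CPM at 14 d and 587, 1073 and 622 CPM at 6 d, with an adjusted p of 0.344.

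In the secretory pathway and in lipid synthesis edgeR called 0 genes in the model of all libraries. Over all genes tested, 7.26% were higher and 5.78% were lower at a nominal p of 0.05 or less. Of 55 tested genes of endoplasmic reticulum translocation, folding and glycosylation, 7 were higher and 0 lower at that p, with a median log2 fold change of 0.11 that was -0.07 with total counts in place of TMM. ATF6 (a sensor of unfolded protein) and CREB3L2 (a transcription factor of secretory cells) had log2 fold changes of 0.46 ± 0.15 and 0.69 ± 0.19. Of 34 genes of traffic to the Golgi, 4 were higher, including ARFGAP3 with 0.39 ± 0.11.

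The list of fatty acid and glycerolipid synthesis had 32 tested genes and a median of 0.24. At a nominal p of 0.05 or less 7 were higher and 2 were lower, against 7.26% and 5.78% of all genes tested. ACSS1 (a mitochondrial acetyl-CoA synthetase) had 24.5, 17.4 and 19.97 CPM at 14 d and 36.6, 36.2 and 27.8 CPM at 6 d, with a log2 fold change of 0.70 ± 0.15 and an adjusted p of 0.0833. GPAT3 and GPAM, which start glycerolipid synthesis, had log2 fold changes of 0.54 and 0.46, and ACSL6 (an acyl-CoA synthetase) had 2.33. SCD5 (a stearoyl-CoA desaturase) had 5.36, 7.79 and 9.16 CPM at 14 d and 3.84, 4.84 and 6.69 CPM at 6 d.

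In edgeR, cholesterol, sphingolipid and lactose genes had 0 calls in the model of all libraries. The list medians were 0.05 for 19 genes of cholesterol synthesis, 0.04 for 22 of sphingolipid metabolism and 0.06 for 30 of lactose and sugar nucleotide supply. At a nominal p of 0.05 or less 1, 3 and 6 of them were higher and 0, 0 and 2 were lower, and the 6 include LALBA. The shares of all genes tested were 7.26% and 5.78%. UGP2 (the enzyme that makes UDP-glucose) had 235, 237 and 182 CPM at 14 d and 301, 422 and 275 CPM at 6 d, with an adjusted p of 0.193. SGMS1 (sphingomyelin synthase) had a log2 fold change of 0.47 ± 0.12 and ORMDL3 (a regulator of sphingolipid synthesis) of 0.50 ± 0.13. The 20 nuclear genes of the respiratory chain had a median of 0.02, with 0 at a nominal p of 0.05 or less. Antigen presentation genes (8 tested) and ribosomal protein genes (6 tested) had medians of 0.04 and 0.17, each with 0 called and 1 higher at that p.

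Hormone receptors and regulators of lactogenesis were not called by edgeR in the model of all libraries. Of 32 tested, 1 was higher and 5 were lower at a nominal p of 0.05 or less, against 7.26% and 5.78% of all genes tested. NR2F2 (an orphan nuclear receptor of stroma) had 54.3, 45.6 and 56.1 CPM at 14 d and 42.9, 34.4 and 43.02 CPM at 6 d, CRABP2 (a carrier of retinoic acid) had a log2 fold change of -0.95 ± 0.29, and PGR (the progesterone receptor) had -0.66. NCOA2 (a coactivator of nuclear receptors) had 1.20 ± 0.28. PRLR (the prolactin receptor), STAT5A, STAT5B and ELF5, which carry the lactogenic signal, had log2 fold changes of 0.06, 0.13, 0.22 and 0.20 and adjusted p between 0.559 and 0.939.

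The markers of the labelled tissue were present. EPCAM (an epithelial adhesion molecule) had 551, 675 and 545 CPM at 14 d and 601, 735 and 565 CPM at 6 d, and the summed luminal markers ranged from 2134 to 2521 CPM at 14 d and from 2193 to 2711 CPM at 6 d, with 0 of 10 called. The myoepithelial markers ranged from 2049 to 2136 CPM and from 2066 to 2273 CPM, with 0 of 8 called. The adipocyte markers ranged from 81.2 to 115 CPM and from 97.8 to 115 CPM, with 0 of 8 called. The adipocyte list had a median log2 fold change of 0.21, with 5 of 8 members above 0. At a nominal p of 0.05 or less 1 was higher and 2 were lower, against 7.26% and 5.78% of all genes tested. CIDEC (a protein of lipid droplet growth) had 0.70 ± 0.30 with an adjusted p of 0.343 by edgeR. PLIN1 and PLIN4 (lipid droplet coat proteins) had log2 fold changes of -1.19 ± 0.45 and -1.73 ± 0.69 with adjusted p of 0.294 and 0.317 by edgeR. KRT18 (a keratin of luminal cells) had 72.5, 83.8 and 59.4 CPM at 14 d and 45.9, 53.9 and 45.9 CPM at 6 d, with a log2 fold change of -0.57 ± 0.20 and an adjusted p of 0.26.

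**Figure D5:**
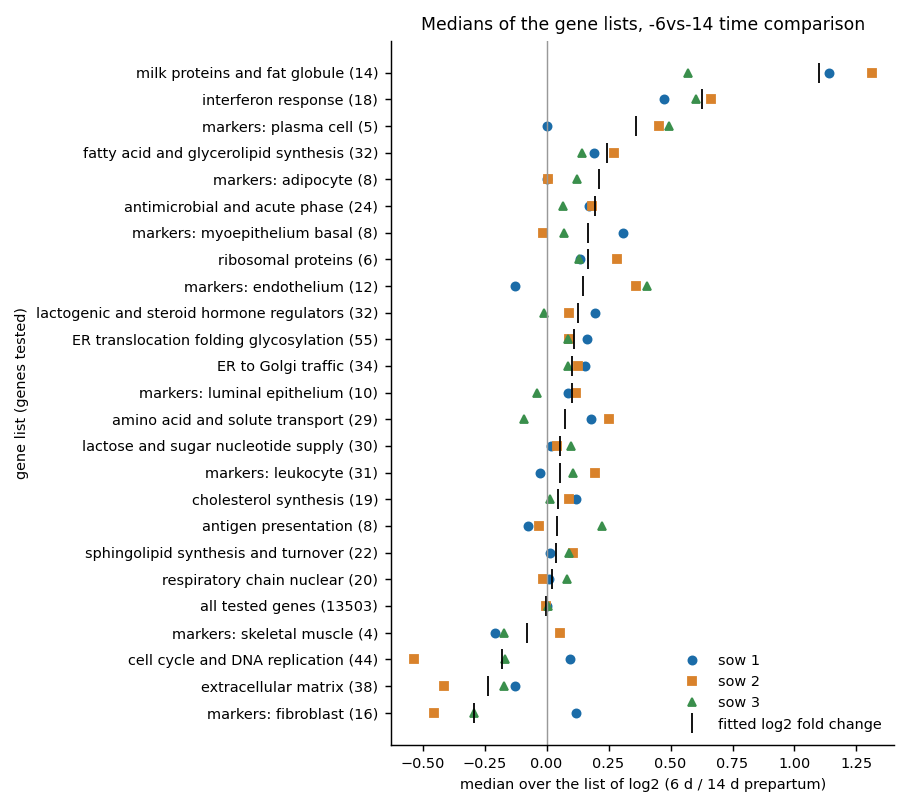
Median over each gene list of the log2 ratio of 6 d to 14 d prepartum (horizontal axis), with colored points for the 3 sows, a black tick for the median of the fitted log2 fold changes, and the number of genes tested in parentheses. The milk protein list (1.10) and the interferon list (0.63) lie to the right in all 3 sows, the extracellular matrix list (-0.23) to the left in all 3, and the cell cycle and fibroblast lists have a sow on each side of 0.

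The lists with 0 called members in edgeR were read with the other tools as well. limma-voom called 3 members of the interferon list, the same genes as edgeR, and 0 of every other list. DESeq2 called 229 genes higher and 96 lower among all genes tested. It called 8 members of the interferon list, adding MX1, IRF9, STAT2, PARP14 and ETV7, and 4 of the milk list, namely XDH, BTN1A1, CSN3 and LALBA. It called C4A, LBP, PIGR and TLR2 of the acute phase list, CREB3L2 and ARFGAP3 of the secretory pathway, ACSS1 of fatty acid synthesis, and ORMDL3 and SGMS1 of the sphingolipid list, all higher. In the list of lactose and sugar nucleotide supply it called LALBA and PYGB higher and HK1 lower, and in solute transport SLC34A2 and SLC7A8 higher. It further called ADGRF5 of the endothelial and CD4 of the leukocyte markers, both higher, and NR2F2 of the hormone regulators and COL9A1, both lower. It called 0 genes of the remaining lists, which are those of the cell cycle, respiratory chain, cholesterol synthesis, ribosomal proteins, antigen presentation and the other cell type markers. edgeR on the 6 libraries alone, with the sow in the model, called 808 genes, 507 higher and 301 lower. These held 10 of the interferon list and 9 of the milk list including CSN2 and CSN1S1. They also held 8 of the extracellular matrix list, all lower, including DCN, LUM and POSTN. That fit also called 7 genes of the endoplasmic reticulum list, 4 of traffic to the Golgi, 5 of fatty acid synthesis and 3 of cholesterol synthesis, all higher. Among the hormone regulators it called 3 higher and 2 lower (CRABP2, ESR1, NFIB, NR2F2 and SATB1), and among the adipocyte markers PLIN1 and PLIN4, both lower. It called 5 genes of the acute phase list, 2 of the sphingolipid list and 1 ribosomal protein gene, all higher. In lactose and sugar nucleotide supply 5 were higher and 1 lower, and in solute transport 4 were higher and 2 lower. Of the other markers it called 5 of fibroblasts lower, 1 luminal higher and 2 luminal lower, and 2 endothelial and 1 leukocyte higher.

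The sows differed in how many genes moved. A ratio of at least 1 on the log2 scale between 6 and 14 d was found for 387, 380 and 224 genes, and a ratio of -1 or less for 128, 234 and 115 genes. Over the 56 called upregulated genes the median log2 ratio was 1.16, 1.24 and 1.11 by sow, and over the 7 called downregulated genes it was -0.75, -0.90 and -0.99. Sow 3 had the smallest median of the milk protein list, and its median of the interferon list lay between those of the other sows.

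At the edge of the call, 14 genes had an adjusted p above 0.05 and up to 0.06. Of the 63 called genes, 38 had an absolute log2 fold change of at least 1, namely 36 higher and 2 lower. At a nominal p of 0.05 or less there were 1761 genes (13% of those tested), 980 higher and 781 lower.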

How the data were processed

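Mammary mRNA of 3 sows at 5 time points was sequenced as single reads in 15 libraries. The authors aligned the reads with STAR 2.5.1b to Sscrofa10.2 and deposited raw read counts per gene, made with featureCounts of Subread 1.5.0 and not normalized. The file headers name the Ensembl annotation and the study's methods the RefSeq annotation. Names were attached to 11804 of 25322 identifiers from a reference table, and 9067 of the 13503 tested genes had one.

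Genes reaching a CPM of 1 in 3 or more libraries were tested with edgeR 4.0.16 in R 4.3.3 (TMM, glmQLFit, glmQLFTest) in one model of all 15 libraries with time and sow. Normalization factors enter the CPM values, and the prior count of log2 CPM was 2. The SE was obtained as the absolute log2 fold change over the root of F. limma 3.58.1 and DESeq2 1.42.0 served as alternatives. The sow is not in the sample labels and was joined through the study's sequencing summary by the exact total count. Same-sow libraries of both days deviated together from the day means, with correlations of 0.555, 0.530 and 0.464, and different-sow pairs had correlations between -0.371 and -0.177. No library was a copy, since at least 16727 genes differed between any 2 of a time point. Scripts were tested on simulated data.

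The genes named are the called genes with a name, up to 3 members of each list at an unadjusted p of 0.05 or less that moved one way in all sows, the 2 largest rises and falls without a name, the 2 highest markers of each cell type, and the milk genes. The comparison, its members and the lists were chosen with earlier results of these data known. Lists were described without a test. Biopsies of a sow are repeated samples. The model takes out constant differences between the sows. The p-values rest on the spread that is left over all 15 libraries, which is how the courses of these 3 animals differ. Levels of genes are not scaled by length and are not compared between genes. One member of the interferon list is not reported here by name.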

Additional observations from a re-analysis of the deposited data

How the results depend on the processing

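The main counts were 63 called genes, 56 higher and 7 lower. Without the replicate block for the sow, edgeR called 0 genes (0 higher, 0 lower, 0 of the interferon list) with 1189 at a nominal p of 0.05 or less, and in the 6 libraries alone it called 9 (9 higher, 0 lower, 1 of the interferon list). In the 6 libraries alone with the block it called 808 (507 higher, 301 lower, 10 of the interferon list) with 3185 at a nominal p of 0.05 or less. limma-voom called 23 (20 higher, 3 lower) and DESeq2 325 (229 higher, 96 lower, 8 of the interferon list). Total counts without TMM gave 13 (12 higher, 1 lower, 0 of the interferon list) and moved the median log2 fold change of all genes to -0.19, so that positive list medians under 0.19 changed sign. An added threshold of 1 on the log2 scale left 38 (36 higher, 2 lower), and without the 10 highest genes 1 of the interferon list was called. With the RNA integrity number as covariate 0 genes were called (0 higher, 0 lower, 0 of the interferon list), 615 were at a nominal p of 0.05 or less, and 4 of the interferon list were higher at that p. Leaving out single libraries or sows gave 1 to 33 calls, 1 to 30 higher, 0 to 3 lower, 686 to 2009 genes at a nominal p of 0.05 or less, 0 to 1 calls in the interferon list and 8 to 12 of its genes higher at that p. RLE normalization and both other filters on low counts left 63 to 78 calls. The causes were not tested.

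Among the named genes, those that changed direction were not called in the first place. CEL, with a log2 fold change of 0.00, had 0.0098 without the block, 0.14 in limma-voom, 0.080 and 0.0074 in the 6 libraries with and without the block, 0.51 with the RNA integrity number, and -0.51 to 0.58 without single libraries or sows. With the RNA integrity number LCN2 had 0.40, PLIN1 0.35, PLIN4 0.76 and SPP1 0.49. Without single libraries or sows LCN2 had -0.47 to 0.27 and PLIN5 -0.22 to 0.54. Over all alternatives, 1305 of the named genes' values kept their direction and side of the threshold, 566 lost the call and 61 gained one. These totals include genes that were not called, which cannot lose a call. Among the called genes with a name, PLEKHD1 lost its call in 3 of 20 settings. Each of the others lost it in 10 to 16 of at most 20 settings.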
